A study of Mus musculus with 29 samples.

Results

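The 9 genes described here, Pkp1, Pkp2, Pkp3, Pkp4, Dsp, Jup, Dsc2, Dsg2 and Perp, encode proteins of the desmosome or of its close relatives. They were taken from the 20145 genes named on a mouse microarray as those whose RefSeq accession on the probe maps to these symbols. They have 11 probes, with a pair each for Dsp and Dsg2, and 7 of the 9 genes passed the filter on dim probes and entered the fit of 15628 genes. Dsc2 and Dsg2 did not. The genes were selected on their array signals in these same groups and on their differences between groups, so their levels and differences are given as a description, without p-values.

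The series measured RNA of podocytes, the epithelial cells that wrap the glomerular capillaries of the kidney, in male Pod-hCD25T/G mice of the C57BL/6J background aged 8 weeks. Per the labels, mice had a heminephrectomy and then LMB2 at 25 ng per gram of body weight, and podocytes were separated on a cell sorter into TdTomato-positive and EGFP-positive cells. LMB2 is an immunotoxin in which a Pseudomonas exotoxin part is fused to a fragment of an anti-CD25 antibody that binds the human protein. The labels do not state what each colour means. In the published design of these mice, human CD25 is present in the red cells and absent from the green ones beside them, so one question is what happens in targeted and in untargeted cells of the same kidney. TdTomato podocytes gave 4, 4, 4 and 2 arrays at days 0, 1, 4 and 7, and EGFP podocytes gave 4, 3, 4 and 4. Day 0 means before injection, and all groups carry the same transgenes. The 29 arrays come from 16 mice, 13 of which gave both populations. The promoter that drives the transgenes, and whether day 0 mice had the surgery, are not given in the sources used here. The sorted cells are bulk samples, so fewer cells of a type and less RNA per cell cannot be told apart.

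Desmosomes are adhesive junctions that tie the keratin or other intermediate filaments of one cell to those of its neighbour. Desmogleins and desmocollins are the cadherins that meet between the cells, plakoglobin (Jup) and the plakophilins bind their tails, and desmoplakin (Dsp) links this plaque to the filaments. Podocytes join each other through the slit diaphragm, a modified junction that shares proteins with adherens and tight junctions, and they contain vimentin rather than a dense keratin network.

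Promoter sequence from RefSeq (GRCm38.p6) was matched for 3 of the 9 genes, Dsp, Jup and Pkp4. The 250 bases before the start site are shown for the plaque linker and the catenin, both of which were lower in TdTomato podocytes at day 4 than at day 0, and for Pkp4, the plakophilin that varied least. The windows are chr13:38151044-38151293 on the plus strand for Dsp, chr11:100397791-100398040 on the minus strand for Jup and chr2:59160600-59160849 on the plus strand for Pkp4, each written 5′ to 3′ and ending just before a RefSeq transcript start. RefSeq's span of the Jup gene reaches into the last bases of its window. Pkp4 has a second RefSeq window, chr2:59161619-59161868, with a GC content of 70% and 0 matches to CCAAT, which is not shown. Capitals mark CCAAT, a promoter element bound by NF-Y, on either strand.
Dsp: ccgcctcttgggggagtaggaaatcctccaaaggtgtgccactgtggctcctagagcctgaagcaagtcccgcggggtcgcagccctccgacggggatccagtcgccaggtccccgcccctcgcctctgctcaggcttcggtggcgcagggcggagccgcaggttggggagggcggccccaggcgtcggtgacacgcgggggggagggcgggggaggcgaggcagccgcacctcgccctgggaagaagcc
Jup: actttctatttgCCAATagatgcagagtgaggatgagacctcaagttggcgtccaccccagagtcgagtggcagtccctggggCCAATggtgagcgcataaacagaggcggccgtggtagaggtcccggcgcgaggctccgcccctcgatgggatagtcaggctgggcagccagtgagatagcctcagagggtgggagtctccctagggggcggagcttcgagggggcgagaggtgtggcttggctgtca
Pkp4: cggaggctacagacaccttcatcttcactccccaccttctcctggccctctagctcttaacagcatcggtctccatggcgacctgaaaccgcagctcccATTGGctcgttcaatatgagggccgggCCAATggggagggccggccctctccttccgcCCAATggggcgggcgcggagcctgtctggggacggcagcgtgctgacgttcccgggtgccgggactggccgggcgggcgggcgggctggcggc
CCAAT was found 2 times in the Jup window, with first bases 238 and 167 bases upstream of the start, and 3 times in the Pkp4 window, at 151, 124 and 93 bases upstream. The Dsp window held none, and its GC content was 72.4%, against 62% for Jup, 68.4% for Pkp4 and 52.4% over all promoter windows. No window held the AP-1 motif TGANTCA, the grainyhead motif AACCGGTT or the TATA box TATAAA on either strand. Of 32851 promoter windows of the same length, 33.8% hold CCAAT, 6.75% TGANTCA, 0.116% AACCGGTT and 12.4% TATAAA.

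Signals are log2 values relative to the 75th percentile of each array, so 0 is a bright spot and values near -6 or -7 lie at the background of the scanner. A probe counts as measured where it is well above background. Between 48.2% and 65.5% of spots were so on each array, 0 spots were saturated, and arrays of a group correlated at 0.956 to 0.988. Precision is limited by the few arrays per group. The podocyte markers Nphs1, Podxl, Synpo, Wt1, Ptpro and Cdkn1c were well above background on every array. Their summed level was 883 to 1059 in TdTomato podocytes at day 1 and 860 to 951 at day 4, against 1451 to 1989 at day 0, without overlap, and its part in the results of those days was not tested. Both arrays of mouse MC221 at day 7 stand apart: the authors' columns for them match the scanner file of another mouse more closely than their own, and the summed level of 7 distal nephron markers was 65.8 in its TdTomato and 30.8 in its EGFP cells, against 2.89 to 5.23 on the other 4 arrays of day 7. Day 7 differences of the desmosome genes are therefore given with and without this mouse, and those of other genes without it where its removal ended a call. TdTomato MC823 at day 4 also stands apart, with sums of 25.5 for proximal tubule markers and 18.2 for distal nephron markers, against 1.44 to 2.83 and 2.03 to 4.70 on the other TdTomato arrays of that day. Without it the TdTomato differences from day 0 at day 4 were 8.51 for Pkp1, -0.58 for Pkp2, -0.81 for Pkp3, -0.79 for Dsp and -1.38 for Jup, and of these the Pkp2 call ended.

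Pkp1 encodes plakophilin 1, a plaque protein best known from the outer layers of skin, where its loss weakens desmosomes. In TdTomato podocytes its log2 levels were 4.38, 2.87, 4.95 and 4.60 at day 1, against -5.87, -6.42, -6.61 and -6.38 at day 0. All 4 arrays of day 1 were well above background, and none of day 0 was. The difference was 10.52 ± 0.51 on the log2 scale (SE, n = 4 and 4). Because the day 0 signals were not well above background, the fold is a bound set against the detection level, the lowest signal well above background on each array. It was at least 620-fold higher. Normexp background correction, described below, lowered the difference to 5.97, so bounds of this kind hold for this processing only.

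At day 4 the TdTomato levels of Pkp1 were 1.74, 1.72, 3.12 and 1.87, a difference of 8.43 ± 0.51 from day 0 and at least 146-fold higher. The 2 TdTomato arrays of day 7 read -1.64 in MC221 and -1.23 in MC791, which is 4.88 ± 0.62 above day 0, at least 12.4-fold, and 5.09 without MC221. Levels of day 1 and day 4 overlapped through mouse MC822, and both lay above those of day 7. Each of the 4 slides held arrays of several days, and within slides the differences from day 0 ran from 9.29 to 11.56 at day 1, from 7.61 to 9.73 at day 4 and from 4.22 to 5.19 at day 7.

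In EGFP podocytes Pkp1 read -4.13, -4.00 and -1.68 at day 1, -4.94, -5.19, -3.90 and -3.94 at day 4, and -3.22, -2.27, -2.30 and -1.59 at day 7, with -6.06, -7.02, -7.13 and -7.39 at day 0. It was well above background on 2 of 3, 2 of 4 and 4 of 4 arrays at the later days and on 0 of 4 at day 0. Every later array lay above every day 0 array. The log2 differences were 3.63 ± 0.55 at day 1, 2.40 ± 0.51 at day 4 and 4.55 ± 0.51 at day 7 (n = 3, 4 and 4 against 4). Against the detection level of the day 0 arrays the means were 3.59-fold, 1.54-fold and 6.83-fold higher. The day 1 and day 4 means include arrays not well above background, so those folds are not lower limits. Without mouse MC221 the day 7 difference was 4.85. The day 1 call ended without EGFP MC731, MC742 or MC542 (2.83 to 3.59) and the day 4 call without EGFP MC731, MC742, MC753, MC822 or MC823 (2.21 to 2.36), and both ended with only the compared groups fitted.

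**Figure D1:**
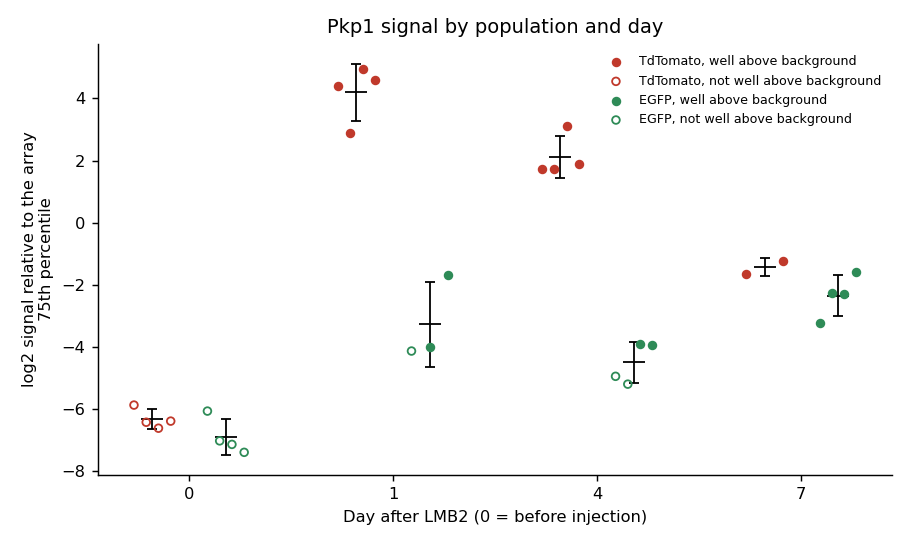
Log2 signal of Pkp1 (vertical axis, relative to the array's 75th percentile) in each array by day, with TdTomato podocytes in red to the left of EGFP podocytes in green. Open points are not well above background, and black marks give the mean ± SD. TdTomato arrays of days 1 and 4 sit between 1.72 and 4.95, day 7 arrays of both populations between -3.22 and -1.23, and all day 0 arrays at -5.87 or lower.

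At day 0 the Pkp1 signals of both populations overlapped, with means of -6.32 ± 0.32 in TdTomato and -6.90 ± 0.58 in EGFP podocytes (SD, n = 4 each), none of them measured. TdTomato exceeded EGFP by 7.47 ± 0.55 at day 1 and by 6.61 ± 0.51 at day 4, with no overlap. Pkp1 was above background on only 2 of 3 and 2 of 4 EGFP arrays at those days, so the sizes depend in part on background signal. At day 7 the groups overlapped, at a difference of 0.91 ± 0.62 (0.82 without MC221). From day 0 to day 1 Pkp1 changed by 6.89 ± 0.75 more in TdTomato than in EGFP podocytes, from day 0 to day 4 by 6.03 ± 0.72 more, and from day 0 to day 7 by 0.33 ± 0.80 more (0.24 without MC221).

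In the mice whose EGFP signal of Pkp1 was above background, it was 0.853% and 1.01% of the TdTomato signal at day 1 (MC541 and MC542), 0.770% and 1.77% at day 4 (MC822 and MC823), and 33.5% and 48.7% at day 7 (MC221 and MC791). Normexp background correction, which lifts dim signals by an offset of 50, lowered the TdTomato differences of Pkp1 from day 0 to 5.97, 3.98 and 1.28 at days 1, 4 and 7 and the EGFP differences to 0.62, 0.40 and 0.99, and ended the 3 EGFP calls.

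The order of the Pkp1 means was TdTomato day 1, TdTomato day 4, TdTomato day 7, EGFP day 7, EGFP day 1, EGFP day 4, TdTomato day 0 and EGFP day 0. Neighbours overlapped except TdTomato day 4 with TdTomato day 7, and EGFP day 4 with TdTomato day 0. Across the 29 arrays the genes most like Pkp1 were Bcl3 (Pearson r = 0.97), a nuclear partner of NF-kB, Nfkbid (r = 0.96), an inhibitor of NF-kB, and Cdh22 (r = 0.96), a cadherin. The points share arrays and mice, and 13634 genes were compared. Bcl3 averaged 7.62 in TdTomato podocytes at day 1 against -0.70 at day 0.

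Pkp2, the most widely distributed plakophilin and a cause of heart muscle disease in people when mutated, was bright on all 29 arrays. In TdTomato podocytes it read 6.76, 5.49, 5.97 and 6.47 at day 1, against 4.67, 4.26, 4.55 and 4.47 at day 0. The groups did not overlap, and the difference was 1.68 ± 0.22, 3.21-fold higher. At day 4 the TdTomato levels were 3.99, 3.47, 4.26 and 3.78, lower than day 0 by 0.61 ± 0.22 (1.53-fold), with MC822 at the same 4.26 as the lowest day 0 array to 2 decimals. The median of all genes fell by 0.29 in that comparison, so Pkp2 lay 0.32 below it. That call ended without TdTomato MC122, MC692 or MC823 (-0.58 to -0.48), and quantile normalization brought the difference to -0.39.

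At day 7 Pkp2 read 4.51 in MC221 and 4.29 in MC791 in TdTomato podocytes, -0.09 ± 0.28 from day 0 (-0.20 without MC221). In EGFP podocytes the group means of Pkp2 were 4.55 ± 0.28, 4.39 ± 0.31 and 4.91 ± 0.24 at days 1, 4 and 7, with 4.51 ± 0.20 at day 0 (SD), and differences from day 0 ran from -0.12 to 0.40 with overlap at each day (0.39 at day 7 without MC221). TdTomato exceeded EGFP by 1.63 ± 0.24 at day 1 without overlap, and the change from day 0 to day 1 was larger by 1.65 ± 0.33 in TdTomato podocytes. The day 4 difference between populations was -0.51 ± 0.22 in the main fit, which ignores pairing by mouse. It passed the threshold only in some alternatives, among them the mouse as a replicate block. Within mice it ran from -0.69 to -0.36. TdTomato day 1 stood alone at the top of the order of means, and each of the other groups overlapped its neighbour. Most like Pkp2 across arrays were Pxdc1, Abl2, a tyrosine kinase that binds actin, and Shroom2, an actin-binding protein (r = 0.96 each).

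Pkp3, a plakophilin that binds most desmosomal cadherins, read 2.92, 2.47, 2.54 and 2.94 in TdTomato podocytes at day 4, against 3.98, 3.15, 3.36 and 3.30 at day 0. Every day 4 array lay below every day 0 array, by 0.73 ± 0.16 on average (1.66-fold lower), or by 0.44 more than the median of all genes. EGFP podocytes of day 4 read 3.67, 3.44, 3.54 and 3.69, all above the TdTomato arrays of that day, and the difference was -0.87 ± 0.16 (1.83-fold lower in TdTomato). The change from day 0 to day 4 differed between populations by -1.06 ± 0.23. At day 1 the TdTomato mean was 3.45 ± 0.16, the same as at day 0 to 2 decimals (3.45 ± 0.36), and at day 7 it was 3.72 ± 0.33 (n = 2), which is 0.27 ± 0.20 above day 0 and 0.50 above it without MC221. EGFP means of Pkp3 lay between 3.14 and 3.58.

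Pkp4, also known as p0071, is found in adherens junctions as well as desmosomes. It varied least of the 9 genes, with its highest and lowest group means at day 1, 1.93 in TdTomato and 1.39 in EGFP podocytes. That pair was its largest difference: TdTomato podocytes read between 1.73 and 2.16 on 4 arrays and EGFP podocytes 1.20, 1.52 and 1.46, higher by 0.54 ± 0.18 (1.45-fold) without overlap. The call ended when only the compared groups were fitted, and without EGFP MC125 (0.44) or TdTomato MC831 (0.46). Differences of Pkp4 from day 0 ran from -0.20 to 0.28 in TdTomato and from -0.22 to -0.04 in EGFP podocytes, and overlapped at each day. Without MC221 the day 7 differences of Pkp4 were -0.17 and -0.05.

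**Figure D2:**
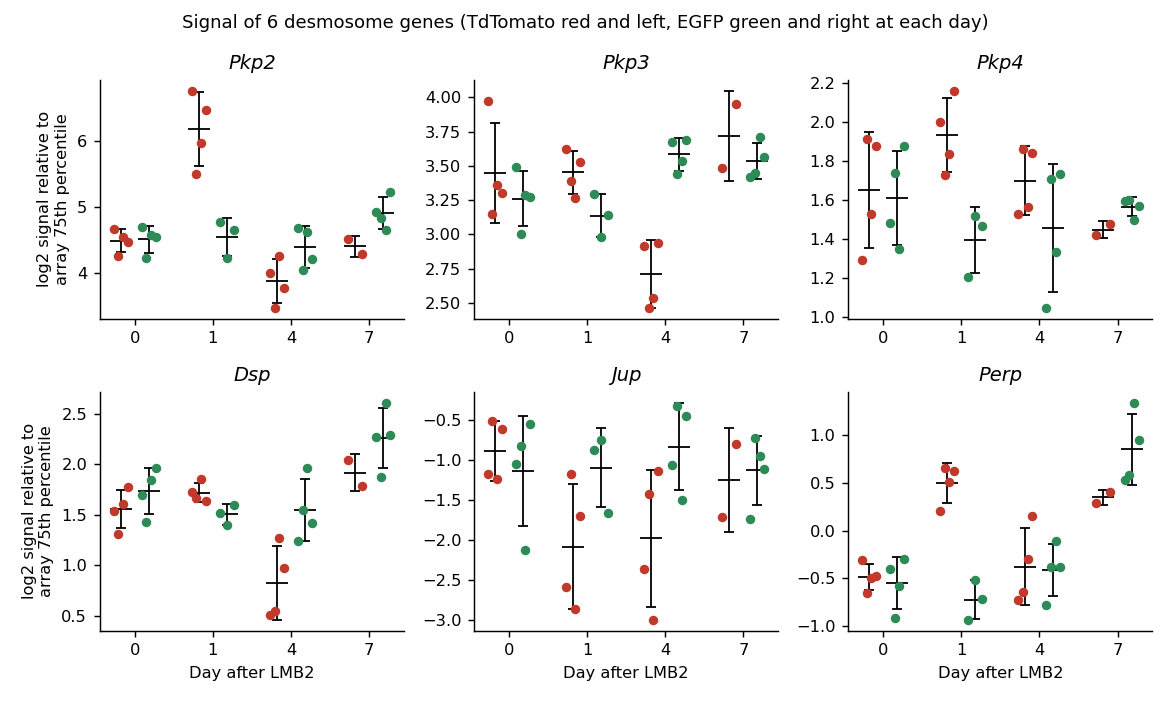
Log2 signal (vertical axes, relative to the array's 75th percentile, each panel on its own scale) of Pkp2, Pkp3, Pkp4, Dsp, Jup and Perp by day, with TdTomato arrays in red to the left of EGFP arrays in green and black marks for the mean ± SD. TdTomato podocytes stand above EGFP at day 1 for Pkp2 (mean 6.17 and 4.55) and Perp (0.50 and -0.72), and below it at day 4 for Pkp3 (2.71 and 3.58).

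Dsp, desmoplakin, is the plaque protein that no desmosome lacks. In TdTomato podocytes it read 0.51, 0.55, 1.27 and 0.98 at day 4, against 1.53, 1.31, 1.61 and 1.78 at day 0. All arrays of day 4 lay below those of day 0, by 0.73 ± 0.18 (1.66-fold lower), or by 0.44 more than the median of all genes. EGFP podocytes at day 4 read 1.24, 1.55, 1.97 and 1.42, with 1 of them below the highest TdTomato array, and the difference was -0.72 ± 0.18. At day 1 the TdTomato mean of Dsp was 1.72 ± 0.09 and at day 7 it was 1.92 ± 0.18 (0.23 above day 0 without MC221, and 0.36 ± 0.22 with it).

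The EGFP arrays of day 7 held the highest mean of Dsp, 2.26 ± 0.30, which was 0.53 ± 0.18 above EGFP day 0 with overlap (0.52 without MC221). It passed the threshold with the slide as a block (0.49) or without EGFP MC791 (0.65). The second Dsp probe, dimmer and above background on 28 of 29 arrays, differed from day 0 by -1.03 in TdTomato podocytes at day 4. The probes disagreed in sign on 3 differences from day 0, where the dimmer one gave -0.27 for TdTomato day 1, -0.15 for TdTomato day 7 and -0.23 for EGFP day 7.

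Jup, plakoglobin, sits in both desmosomes and adherens junctions and is a close relative of beta-catenin. TdTomato podocytes read -2.59, -1.18, -2.87 and -1.70 at day 1 and -2.36, -1.42, -3.00 and -1.14 at day 4, with -1.18, -0.51, -1.23 and -0.61 at day 0. One array at day 1 and 1 at day 4 lay within the day 0 range, and the others lay below it. Jup was lower by 1.20 ± 0.43 at day 1 (2.30-fold) and by 1.09 ± 0.43 at day 4 (2.14-fold). Its SE was the largest among the 6 genes measured on every array.

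Those Jup calls rest on single arrays: the day 1 call ended without TdTomato MC731, MC753, MC125 or MC542, with differences between -1.11 and -0.94, and the day 4 call ended without TdTomato MC731, MC753, MC151 or MC822 (down to -0.75 without MC822) or with only the compared groups fitted. Normexp gave -0.72 and -0.66. EGFP means of Jup stayed between -1.14 and -0.84 across the 4 days. TdTomato differed from EGFP by -0.99 ± 0.46 at day 1, which passed the threshold with the mouse as a fixed replicate block (-1.12), and by -1.14 ± 0.43 at day 4, a call that ended without TdTomato MC151 or MC822 or EGFP MC692 or MC823 (-1.02 to -0.80) and with only the compared groups fitted. At day 7 the TdTomato arrays read -1.72 in MC221 and -0.80 in MC791, and the difference from day 0 was -0.37 ± 0.52 (0.09 without MC221).

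Dsc2 and Dsg2, the desmocollin and desmoglein found in simple epithelia, were not well above background in nearly all podocyte samples. Dsc2 was above background on 0 of 29 arrays, with levels between -7.50 and -5.55. Dsg2 was above background on 2 arrays, TdTomato MC791 at day 7 (-2.74) and EGFP MC151 at day 4 (-3.27), and read between -7.17 and -4.76 on the others. The second Dsg2 probe was above background on 0 of 29. Of the 2 arrays with a Dsg2 signal, TdTomato MC791 had the highest sum of 6 glomerular endothelium markers among the 29 arrays (35.6) and the second highest of 7 proximal tubule markers (3.70), while EGFP MC151 had 15.7 and 0.804. Their distal nephron sums were 5.23 and 9.65, and the part of these cells in the Dsg2 signal was not tested. By the same measure of likeness Dsg2 went with Ikzf3 (r = 0.76), Slc35e1 (r = 0.74) and Gata5 (r = 0.68), a ranking that rests on those 2 arrays.

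Perp, a membrane protein of desmosomes and a transcriptional target of p53 and p63, was measured on every array. TdTomato podocytes read 0.21, 0.66, 0.51 and 0.63 at day 1, against -0.31, -0.65, -0.49 and -0.48 at day 0. The groups lay apart by 0.98 ± 0.20 (1.98-fold higher). At day 4 the TdTomato mean was -0.38 ± 0.40, with a difference of 0.11 ± 0.20 and overlap. At day 7 it read 0.30 in MC221 and 0.41 in MC791, higher than day 0 by 0.83 ± 0.25, and 0.89 without MC221, although the call then ended, as it did without MC791 (0.78) and with normexp (0.50).

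EGFP podocytes read 0.54, 0.59, 1.34 and 0.95 for Perp at day 7, against -0.40, -0.91, -0.58 and -0.29 at day 0. This was the largest EGFP difference among the genes measured on every array, 1.40 ± 0.20 or 2.64-fold higher, and 1.51 without MC221. At day 1 Perp averaged 0.50 ± 0.21 in TdTomato and -0.72 ± 0.21 in EGFP podocytes (SD), a difference of 1.22 ± 0.22 (SE), and the change from day 0 differed between populations by 1.16 ± 0.29. At day 7 the TdTomato arrays both lay below the EGFP arrays, at a difference of -0.50 ± 0.25 (-0.55 without MC221). In the order of means of Perp the upper 3 groups were EGFP day 7, TdTomato day 1 and TdTomato day 7, and the lower 5 did not overlap them at that border.

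Markers of other cells moved in some of the same groups. The sum of 5 parietal epithelium markers was 15.3 to 36.1, 13.1 to 30.8 and 23.3 to 28.8 in TdTomato podocytes at days 1, 4 and 7, against 4.67 to 6.78 at day 0. In EGFP podocytes it was 29.6 to 47.1 at day 7, against 5.22 to 9.55 at day 0. The sum of 6 glomerular endothelium markers was 22.5 to 35.6 in TdTomato podocytes at day 7, against 9.16 to 16.3 at day 0. Akap12 led the parietal sum, and Pax2 was above background on 7 of 29 arrays. In TdTomato podocytes at day 1 Akap12 averaged 4.36 against 2.07 at day 0, and Cldn1 2.11 against -2.17. Cd44 (-2.58 against -2.66) and Pax2 (-4.89 against -4.92) hardly differed, and Pax8 was lower (-0.81 against -0.29). At day 4 Pax8 and Pax2 had lower TdTomato means than at day 0, and Akap12, Cldn1 and Cd44 higher ones. At day 7 every parietal marker but Pax2 had a higher mean than at day 0 in both populations. The sum of 4 urothelial markers was 1.05 to 4.00 in TdTomato podocytes at day 1 and 4.52 to 6.88 at day 4, against 0.201 to 0.411 at day 0, and rests on Upk1a alone, since Upk1b and Upk2 were above background on 0 arrays and Upk3a on 1. The sum of 4 myeloid markers was 83.4 to 265 in TdTomato podocytes at day 1, against 38.4 to 56.2 at day 0, with Csf1r and Itgam on every array and Lyz2 above background on 3. Csf1r averaged 6.52 at day 1 against 3.36 at day 0, Itgam 5.82 against 5.24, Ptprc -4.61 against -4.99 and Lyz2 -6.35 against -7.03. The sum of 5 mesangium and smooth muscle markers was lower in TdTomato podocytes at day 1, 0.717 to 1.26 against 2.36 to 5.11 at day 0. The part of these cell types in the values of the desmosome genes was not tested.

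Calls are counted at a limma adjusted p under 0.05 over all 15628 genes. Among the 7 desmosome genes tested, TdTomato podocytes at day 1 had 3 higher and 1 lower, where 23.9% of all genes were called higher and 27.9% lower. At day 4 there were 1 higher and 4 lower (21.3% and 36.1% of all genes), and at day 7 there were 2 higher and 0 lower (10.9% and 8.71%). EGFP podocytes had 1 call at day 1, where 0.0256% of all genes were called in either direction, 1 higher at day 4 (0.557% higher and 0.0384% lower) and 2 higher at day 7 (5.36% higher and 1.95% lower). The comparisons with day 0 share their day 0 arrays within a population. Nothing is read from these counts, since the genes were chosen with the same contrasts known.

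Between populations limma called 0 desmosome genes at day 0, with 0 at an unadjusted p under 0.05, and 0% of all genes, with 73 of 15628 at an unadjusted p under 0.05. TdTomato podocytes had 4 higher at day 1, where 23.8% of all genes were higher and 25.5% lower. They had 1 higher and 3 lower at day 4 (21% and 38.6% of all genes), and 0 at day 7 (6.18% and 0.87%), where 0 had an unadjusted p under 0.05. The change from day 0 differed between populations in 3 desmosome genes at day 1, 2 at day 4 and 0 at day 7, against 38.4%, 44.5% and 2.69% of all genes. With the mouse as a fixed or random replicate block these became 6 at day 1 and 5 at day 4, by the addition of Pkp4, Dsp and Jup at day 1 and of Pkp2, Dsp and Jup at day 4. The shares above belong to the fit without a block, and shares of all genes with a block are not given here. Nothing is read from the counts with a block.

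**Figure D3:**
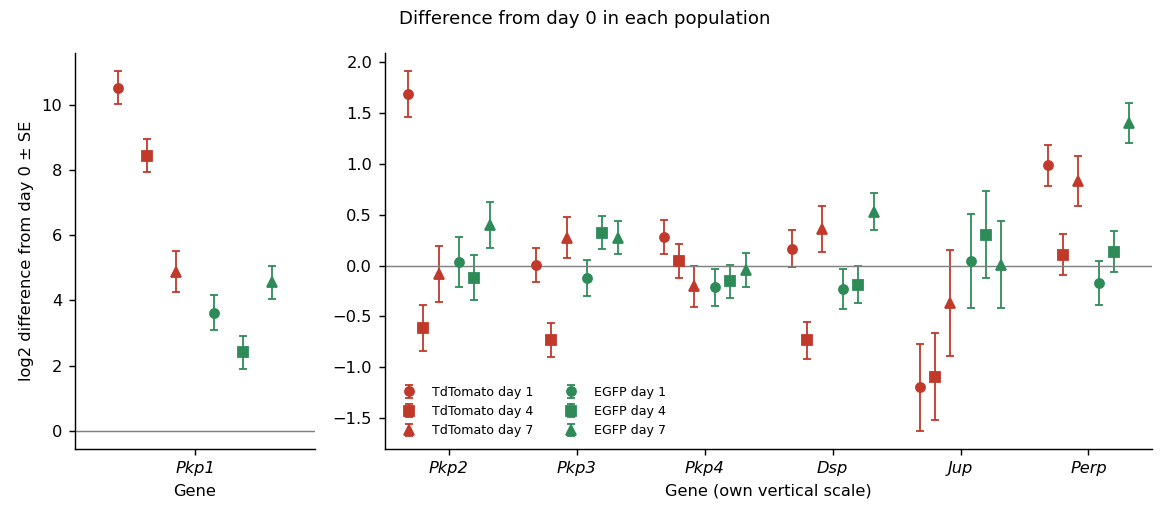
Log2 difference from day 0 ± SE (vertical axes) of 7 desmosome genes in TdTomato podocytes (red, left) and EGFP podocytes (green, right) at days 1, 4 and 7 (circle, square, triangle), with Pkp1 on a scale of its own. Pkp1 reaches 10.52 and the other genes stay between -1.20 and 1.68.

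The proteins that work with the desmosome were taken as 4 lists of 70 genes, of which 57 were tested. In TdTomato podocytes 17.5% of them were called higher and 21.1% lower at day 1, beside 23.9% and 27.9% of all genes. At day 4 the shares were 26.3% and 31.6%, beside 21.3% and 36.1%, and at day 7 they were 21.1% and 8.77%, beside 10.9% and 8.71%. In EGFP podocytes they were 8.77% and 3.51% at day 7, beside 5.36% and 1.95%. Counts per list are read against these shares of all genes, and no list is called particular from them. The lists were chosen with earlier results of these data known, and the genes named are those of largest difference. Their adjusted p-values therefore describe the fit and are not independent support. Among 10 other desmosome and cornified plaque genes 4 were tested: Cdsn (corneodesmosin), Evpl (envoplakin), Ppl (periplakin) and Dsg1c. The desmocollins Dsc1 and Dsc3 and the desmogleins Dsg1a, Dsg1b, Dsg3 and Dsg4 were too dim. Cdsn, an adhesive protein of skin desmosomes, was higher in TdTomato podocytes by 1.53 ± 0.41 at day 1 and 3.04 ± 0.50 at day 7, and in EGFP podocytes by 2.18 ± 0.41 at day 4 and 3.97 ± 0.41 at day 7 (limma adjusted p = 0.0026, 0.0001, 0.007 and 2.6e-07). At day 4 it was lower in TdTomato than in EGFP podocytes by 1.35 ± 0.41 (adjusted p = 0.0064). The EGFP call of day 4 ended without EGFP MC731 (1.85) and with only the compared groups fitted.

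Evpl, a plakin of the cornified envelope, was higher in TdTomato podocytes by 2.54 ± 0.21 at day 4 and 2.16 ± 0.26 at day 7 (limma adjusted p = 5.3e-10 and 1.5e-06). Its EGFP means stayed between -0.74 and -0.36, and TdTomato exceeded EGFP by 2.78 ± 0.21 and 2.59 ± 0.26 at those days (adjusted p = 1.4e-10 and 2e-07). Ppl was higher in TdTomato podocytes at day 4 by 1.51 ± 0.48 (adjusted p = 0.011), a call that ended with normexp (0.02).

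Of 20 intermediate filament genes and their linkers 15 were tested. In TdTomato podocytes 2 rose and 3 fell at day 1, 1 rose and 5 fell at day 4, and 2 rose and 1 fell at day 7, while EGFP podocytes had 0, 0 and 2 calls. Krt17, a keratin of injured and stratified epithelium, read at most -5.87 at day 0 and averaged -0.67 ± 1.19 in TdTomato podocytes at day 4 (adjusted p = 1.5e-09, at least 21.2-fold higher), with 4 of 4 arrays above background. At day 1 it was above background on 3 of 4 TdTomato arrays, and its call ended with normexp (0.17). The day 1 mean was 1.87-fold above the detection level of day 0, which is not a lower limit. At day 7 Krt17 was above background on none of 2, and its call ended with normexp (0.59) and without MC221 (2.32).

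Vim, the main intermediate filament protein of podocytes, fell by 1.40 ± 0.26 and the linker Plec (plectin) by 1.45 ± 0.34 in TdTomato podocytes at day 1, while the linker Dst (dystonin) rose by 1.52 ± 0.23 (limma adjusted p = 8.3e-05, 0.00093 and 4.7e-06). Krt7, bright on every array, fell in TdTomato podocytes by 1.44 ± 0.12 at day 4 and 0.94 ± 0.14 at day 7 (adjusted p = 5e-10 and 4.8e-05). Des, desmin, a filament protein that marks injured podocytes, rose by 2.59 ± 0.32 in TdTomato and 3.48 ± 0.26 in EGFP podocytes at day 7 (adjusted p = 2.3e-06 and 1.7e-09). At day 4 Krt16 and Nes fell in TdTomato podocytes, by 1.01 ± 0.23 and 0.92 ± 0.21 (adjusted p = 0.00086 and 0.00091).

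**Figure D4:**
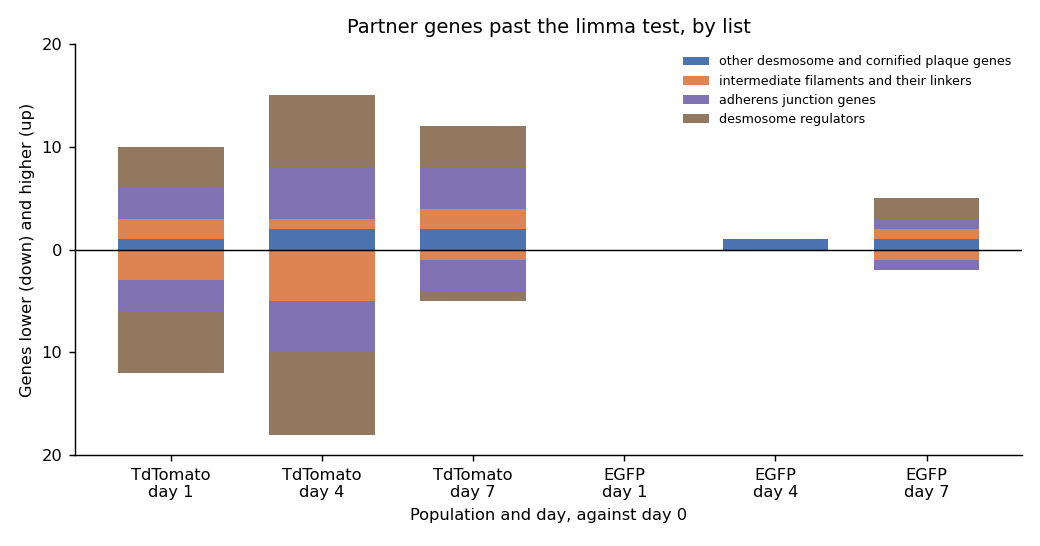
Number of partner genes higher (up) and lower (down) than at day 0 at a limma adjusted p under 0.05 (vertical axis) in each population and day, coloured by list. TdTomato podocytes have 22, 33 and 17 calls at days 1, 4 and 7, and EGFP podocytes 0, 1 and 7.

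Of 19 adherens junction genes 18 were tested. In TdTomato podocytes 3 rose and 3 fell at day 1, 5 rose and 5 fell at day 4, and 4 rose and 3 fell at day 7. EGFP podocytes had 1 higher and 1 lower at day 7 and no call at days 1 and 4. Nectin1, an adhesion protein of adherens junctions, was higher in TdTomato podocytes by 3.75 ± 0.32 at day 1 (13.4-fold), 1.54 ± 0.32 at day 4 and 1.55 ± 0.39 at day 7, and in EGFP podocytes by 2.40 ± 0.32 at day 7 (limma adjusted p = 1.3e-09, 0.0003, 0.0072 and 1.3e-05). The TdTomato day 7 call ended without MC791 (1.19). Ctnna1, alpha-catenin, rose by 0.92 ± 0.14 at day 1 and Nectin3 fell by 1.42 ± 0.28 (adjusted p = 7.5e-06 and 0.00013).

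Cdh2, N-cadherin, fell by 1.12 ± 0.35 in TdTomato podocytes at day 1 (limma adjusted p = 0.0088). The call ended without TdTomato MC542 (-0.76) and with only the compared groups fitted. Cdh1, E-cadherin, was above background on 3 of 4 TdTomato arrays at day 4 and 1 of 2 at day 7, and on none of day 0 (adjusted p = 0.0067 and 0.016). Its means were 2.29-fold and 3.75-fold above the detection level of day 0. They include arrays not well above background, so these folds are not lower limits. The Cdh1 call ended at day 4 with normexp (0.18) and at day 7 without MC221 (2.04) or with the mouse as a random replicate block (2.59). Ctnnd2, a delta-catenin of neurons, was above background on all 4 TdTomato arrays of day 4 and on 0 of day 0 (adjusted p = 0.0005, at least 4.99-fold higher). Arvcf, a relative of p120-catenin, fell at day 7 by 0.95 ± 0.17 in TdTomato and 0.59 ± 0.14 in EGFP podocytes (adjusted p = 0.00032 and 0.0073), calls that ended with only the compared groups fitted.

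Of 21 regulators of desmosomes 20 were tested, a list of transcription factors, kinases and proteases. In TdTomato podocytes 4 rose and 6 fell at day 1, 7 rose and 8 fell at day 4, and 4 rose and 1 fell at day 7. EGFP podocytes had 2 higher at day 7 only among the 3 later days. Trp53, which encodes p53, was higher in TdTomato podocytes at day 1 by 1.98 ± 0.54 (limma adjusted p = 0.0031). It was not among the regulators called higher at day 7, where TdTomato podocytes had 2 arrays. The part of Trp53 in the Perp values was not tested. Grhl2, a grainyhead factor that maintains epithelial junctions, was higher in TdTomato podocytes at day 1 by 2.81 ± 0.62 (adjusted p = 0.00047). Adam10, a protease that cleaves cadherins, fell by 1.72 ± 0.19 and Klf4, an epithelial and podocyte transcription factor, by 1.35 ± 0.21 (adjusted p = 5.9e-08 and 7.9e-06).

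The regulators of largest difference in TdTomato podocytes at day 4 were Ovol1, Snai2, Klf5 and Snai1, all transcription factors. Ovol1, an epithelial repressor, averaged -0.69 ± 0.30 against -6.59 ± 0.57 at day 0, where it was not well above background, and was at least 20.9-fold higher (limma adjusted p = 4.1e-10). Snai2 (Slug) was higher by 3.90 ± 0.35, Snai1 (Snail) by 2.29 ± 0.35 and Klf5 by 2.57 ± 0.66 (limma adjusted p = 2e-09, 8.8e-06 and 0.0019), and normexp ended the Klf5 call (0.44). At day 7 Ovol1 was at least 8.06-fold higher and Snai2 higher by 1.96 ± 0.42 (adjusted p = 0.002 for Snai2), and the Snai2 call ended without MC791 (1.62). In EGFP podocytes at day 7 Klf5 was higher by 3.08 ± 0.66 and Snai1 by 1.53 ± 0.35 (adjusted p = 0.0031 and 0.0061). The Snai1 call ended with only the compared groups fitted.

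**Figure D5:**
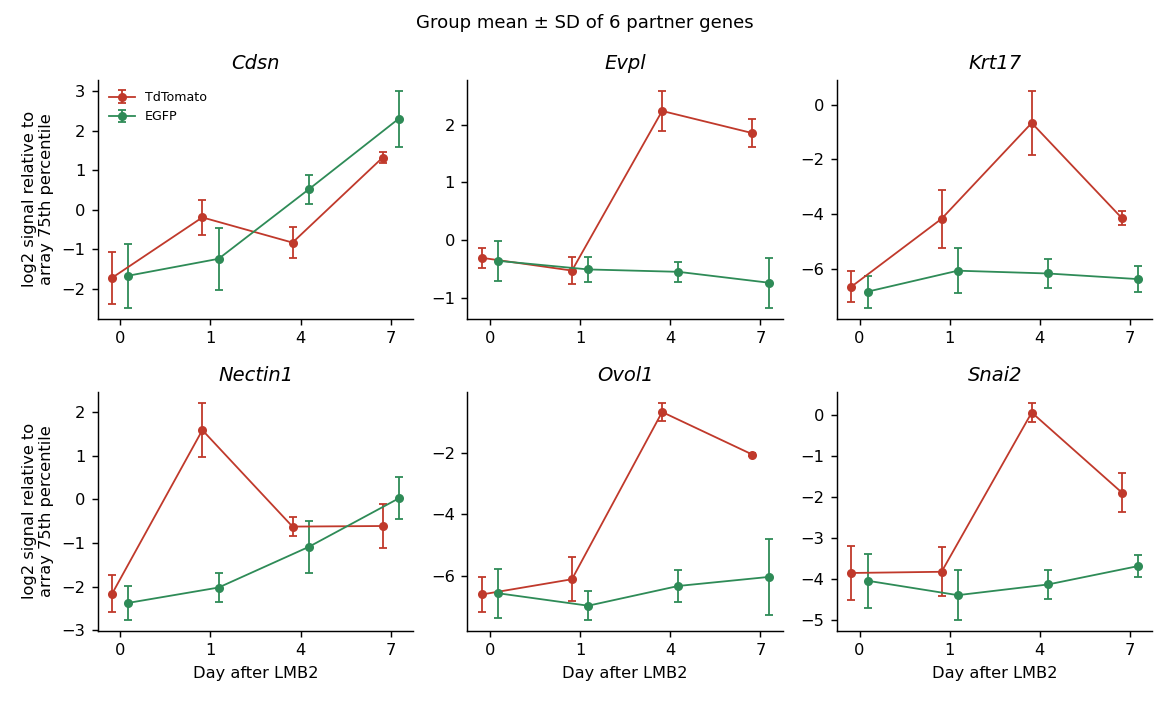
Group mean ± SD of the log2 signal (vertical axes, relative to the array's 75th percentile, each panel on its own scale) of Cdsn, Evpl, Krt17, Nectin1, Ovol1 and Snai2 by day in TdTomato (red) and EGFP (green) podocytes. Evpl, Krt17, Ovol1 and Snai2 peak in TdTomato podocytes at day 4, Nectin1 peaks there at day 1, and Cdsn is highest in EGFP podocytes at day 7 (2.31 ± 0.71).

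Over all 4 lists 22, 33 and 17 of 57 partner genes passed the threshold in TdTomato podocytes at days 1, 4 and 7, as did 0, 1 and 7 in EGFP podocytes, where 3 had an unadjusted p under 0.05 in limma at day 1. Of all 15628 genes 8093, 8979 and 3060 passed in TdTomato podocytes at these days, and 4, 93 and 1142 in EGFP podocytes. The median log2 difference over the partner genes was -0.06, -0.28 and 0.07 in TdTomato podocytes at these days, and -0.13, -0.29 and -0.14 over all genes. Over the 7 desmosome genes it was 0.28, -0.61 and 0.27. In EGFP podocytes the medians were -0.06, 0.02 and 0.05 for the partner genes and -0.12, 0.14 and 0.40 for the desmosome genes. For all genes they were -0.02, 0.07 and 0.00. Without mouse MC221, 11 partner genes passed in TdTomato podocytes at day 7.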

How the data were processed

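Cy3-labelled RNA was read on one-colour Agilent arrays, with 1 scanner file per sample and 62976 spots each. Processed intensity was deposited by the authors as Feature Extraction 11.5.1.1 wrote it, per the file headers, after background subtraction. The authors' normalized table holds log2 values, and no header or label states how they were made. 27 of its 29 columns were closest to their own scanner file, and both columns of mouse MC221 were closer to another.

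Control spots and spots with outlier flags were left out. The log2 intensity minus the array's 75th percentile was used. Spots of a probe were averaged, probes were named through RefSeq accessions (26582 of 55681 probes matched 1 symbol), and each gene took its brightest probe. Probes well above background on at least 3 arrays were kept. Groups were fitted together over 29 arrays with limma 3.58.1 in R 4.3.3, with Benjamini-Hochberg adjustment over 15628 genes and a threshold of 0.05. Within a group, replicates are separate mice. The main fit had no term for the mouse, so SEs and calls between populations ignore the pairing within mice. At-least folds set the bright group's mean against, per array, the higher of the lowest signal well above background and the dim probe's own signal. They hold for this processing only, and are not lower limits where the bright group has arrays not well above background. The steps were tested on simulated data.

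The genes and lists were chosen with earlier results of these data known. Of each partner list, at most 4 called genes per comparison, those of largest difference, are named, and for members whose group means span over 2, the 3 genes of highest Pearson r. Mouse numbers are shared between populations because 1 mouse gave both. Correlations of their deviations from the group means ran from 0.04 to 0.64, and the consensus correlation within mice from limma was 0.596. Alternatives were normexp background correction (offset 50, on median signals, as mean signals were not used here), quantile normalization, other filters, the authors' values, mouse and slide as blocks, only the compared groups, and arrays left out in turn.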

Additional observations from a re-analysis of the deposited data

Results flagged for a closer look

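Of 54 groups of 4 arrays tested for a value far from the others, 1 stood out, a lower rate than the about 1 in 20 that chance gives. The value was Pkp1 in TdTomato podocytes of mouse MC822 at day 4, at 3.12, where the other 3 mice read 1.72 to 1.87.

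The change from day 0 differed between TdTomato and EGFP podocytes, by the interaction term in limma, in 5 cases among the desmosome genes. The same term was called for 38.4% of all genes at day 1 and 44.5% at day 4, so nothing is read from that count. At day 1 the difference of the changes was 6.89 for Pkp1, 1.65 for Pkp2 and 1.16 for Perp. At day 4 it was 6.03 for Pkp1 and -1.06 for Pkp3. These genes were chosen with those values known.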

How the results depend on the processing

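Among the desmosome genes, normexp changed the number of calls to 1 in TdTomato podocytes at day 7 and to 0, 0 and 1 in EGFP podocytes at days 1, 4 and 7. Fitting only the compared groups gave 0 at EGFP days 1 and 4, and leaving out both arrays of MC221 gave 1 at TdTomato day 7. Differences between the populations' changes rose to 6 calls at day 1 and 5 at day 4 with the mouse as a random or a fixed replicate block, and to 5 and 4 with the slide as a block. Shares of all genes called with these blocks are not given here, so nothing is read from the rise. Leaving out 1 array gave 1 to 2 calls at TdTomato day 7, 0 to 1 at EGFP day 1 and 0 to 1 at EGFP day 4.

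Among the partner genes, the calls at EGFP day 4 became 2 with a stricter filter, 3 with the authors' values, 2 with the random replicate block, 3 with the slide block, 0 with only the compared groups and 2 without MC221. At EGFP day 7 they became 14 with the slide block and 4 with only the compared groups. Between populations at day 7 they became 13 with the random replicate block, 3 with only the compared groups and 3 without MC221, and TdTomato day 7 had 11 without MC221. Leaving out 1 array gave 11 to 19, 0 to 2 and 2 to 6 calls at TdTomato day 7, EGFP day 4 and between populations at day 7. Ctnna2 turned to -0.0789 with normexp in TdTomato podocytes at day 4. The cause of these changes was not tested. Signals near background limit Pkp1 at day 0, Dsc2 and Dsg2, and TdTomato day 7 has 2 arrays.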
